A study of Mus musculus with 12 samples.

Results

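Cytosolic ribosomal protein genes were followed in the livers of mice on a steatohepatitis diet, with and without cinnabarinic acid, and on a control diet. The members were 83 of the 56065 genes listed, chosen by symbol: Rpl or Rps and a number, or Rpsa, Rplp0, Rplp1 or Rplp2, with at least 1 protein-coding transcript. Named pseudogenes, the S6 kinases and paralogs whose symbol ends in l or l1 after a digit were left out. Of the 83, 77 encode canonical ribosomal proteins, 46 of the large and 31 of the small subunit. The other 6 carry such a symbol and are retrocopies, a paralog or a binding partner (Rpl27rt, Rpl35rt, Rps27rt, Rps23rg1, Rpl36al and Rps19bp1). Fau and Rack1, which encode canonical ribosomal proteins under other symbols, are given separately. Expected counts reached the filter on low values for 82 members. The exception was Rps27rt, which was listed at 0 in 11 of the 12 libraries.

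All groups were mice labelled male, with a floxed aryl hydrocarbon receptor gene (AhRfl/fl, with no Cre named), on their diet for 20 weeks from 8 weeks of age, with 4 liver libraries each. MD+CA mice ate the steatohepatitis diet, with 40 kcal% from fat, 20 kcal% from fructose and cholesterol at 2%, and received 12 mg/kg cinnabarinic acid, a tryptophan metabolite, in 0.2% DMSO by intraperitoneal injection 3 times a week. MD mice ate the same diet and received the DMSO vehicle on the same schedule. CD mice ate a diet with 10 kcal% from fat and a matched amount of sucrose, and the labels do not say whether they were injected. The diet comparison is therefore also one between vehicle-injected mice and mice whose injections are not stated. The labels do not say that the libraries of a group came from separate mice, so the p-values measure the spread between these libraries.

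Libraries held 9089586 to 14492587 assigned reads. Although the mice were labelled male, every library had Xist reads (5122 to 12865), and the 4 Y-linked genes Ddx3y, Uty, Kdm5d and Eif2s3y were listed at 0 reads in all 12. Markers of hepatocytes, the main cell type of liver, were high throughout: 10 markers summed to 41384 to 77676 CPM (the assigned reads of a gene scaled to a common library size with edgeR TMM factors). In 10 Kupffer cell markers the summed level was 381.7 to 763 CPM in MD+CA livers, 183 to 303 CPM in MD livers and 230.0 to 287 CPM in CD livers, and no marker was at 0 in all libraries. Mitochondrially encoded genes took 5.35, 6.90, 4.97 and 7.94% of reads in MD+CA libraries, 10.7, 17.5, 6.16 and 9.37% in MD libraries and 6.39, 6.08, 5.72 and 6.63% in CD libraries. The allowance for fragment length, the transcript length less the effective length in the deposited tables, was 227, 274, 269 and 274 bases in MD+CA libraries, 230.0, 221, 261 and 253 bases in MD libraries and 246, 268, 279 and 258 bases in CD libraries.

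Each cytosolic ribosome holds 1 copy of most of these proteins, in a small subunit that reads the mRNA and a large subunit that joins amino acids. Their mRNAs begin with a C followed by a run of pyrimidines, the 5′ terminal oligopyrimidine (TOP) tract, through which mTORC1 and the RNA-binding protein Larp1 control their translation together. Transcription, mRNA stability and breakdown of unassembled protein also keep the subunits in balance. The liver, which secretes most plasma proteins, is rich in ribosomes. The genes have many processed pseudogenes, copies made from spliced mRNA, so sequence reads of a gene and of its copies are hard to tell apart.

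The tract that gives TOP mRNAs their name lies at the transcription start, so the start regions of members whose values are described below are shown. The windows run from 10 bases before to 20 bases from the RefSeq start (build GRCm38.p6), and capitals mark the run of at least 8 pyrimidines that begins with C near the start.
Rps6, chr4:86857348-86857377, minus strand: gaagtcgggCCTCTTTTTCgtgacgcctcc
Rps27, chr3:90213629-90213658, minus strand: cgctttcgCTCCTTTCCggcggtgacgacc
Rpl28, chr7:4792955-4792984, plus strand: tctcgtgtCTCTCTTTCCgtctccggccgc
Rpl38, chr11:114668570-114668599, plus strand: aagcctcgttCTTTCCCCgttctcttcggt
Rplp2, chr7:141447641-141447670, plus strand: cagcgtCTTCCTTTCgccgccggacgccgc
Rps9, chr7:3704031-3704060, plus strand: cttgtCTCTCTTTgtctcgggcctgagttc
Rpl5, chr5:107900518-107900547, plus strand: cgtcgcttgcgtgctggtggtgctacatac
Rpl12, chr2:32961702-32961731, plus strand: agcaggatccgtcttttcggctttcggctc
The windows of Rpl5 and Rpl12 hold no run of that length at this annotated start, so they have no capitals. Of 61 members with a RefSeq promoter, 34.4% had such a run that began within 10 bases of the start, against 8.03% of all 27025 promoters of the table. Within the promoter of 250 bases before to 50 bases after the start, searched on both strands, CCGGAA (the letters ETS family factors recognise) was in 49.2% of members, against 15.2% of all promoters. CTTTCC was in 49.2% of members, against 26.3% of all, and can overlap the pyrimidine run. GGGCGG, the letters Sp1 recognises, was in 59.0% of members, against 35.9% of all. AAGATGG, part of the YY1 motif, was in 13.1% of members, against 6.48% of all. The E-box letters CACGTG were in 8.20% of members, against 7.24% of all, and TATAAA was in 8.20% of members, against 14.2% of all. These shares describe the windows, and the differences between them were not tested.

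Processed copies decide how much can be read from a single member, and the bases that tell gene and copy apart are few. In the reference transcripts (GENCODE M21, build GRCm38), 79 members had 1095 copies at 90% identity or more, of which 678 had reads in these libraries. Gm15500 on chromosome 7 matched Rpl5 (chromosome 5) over all 891 coding bases with 0 differences, and Rps6-ps4 on chromosome 2 matched Rps6 (chromosome 4) over all 747 coding bases with 0 differences. Others differed by a single base, shown in capitals with 14 bases on each side and positions counted from the first coding base.
Rps27a (chromosome 11): ctcggacactatagAaaatgtaaaggcca
Rps27a-ps3 (chromosome 6), A71G: ctcggacactatagGaaatgtaaaggcca
Rpl37 (chromosome 15): cgtgagggaacaacGccgaaacccaagag
Rpl37rt (chromosome 5), G249A: cgtgagggaacaacAccgaaacccaagag
Reads within the coding region that do not cover that base fit both transcripts, and where there is no difference no coding read separates them. Reads outside the coding region were not compared here. The quantification divides such reads between gene and copy by a model.

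Ribosomal protein mRNAs were among the most abundant in liver. In TPM, a share of transcripts that corrects for their length, 75 of the 83 members ranked among the 1000 highest of all genes, 5 averaged over 1000 TPM and 72 lay between 100 and 1000 TPM. The median member averaged 324 TPM. Among the highest by mean TPM over all libraries were Rplp1 with 1816 TPM, Rpl26 with 1542 TPM, Rpl13a with 1480.0 TPM and Rplp2 with 1228 TPM. Single libraries of these genes overlapped: Rplp1 ranged over 864 to 2671 TPM and Rplp2 over 689 to 2395 TPM, so their order is not beyond the spread. At the low end of the canonical members were Rpl39 with 91.6 TPM, Rpl15 with 104.6 TPM and Rpl10a with 104.97 TPM. The retrocopies were far lower, with Rpl35rt at 10.98 TPM, Rps23rg1 at 2.22 TPM and Rpl27rt at 1.69 TPM. Ribosomes need equal numbers of most of these proteins, and the mRNA levels of the canonical members spanned more than an order of magnitude. Reads given to copies are not in these levels. Of the reads on gene and copies together, copies held 30.8% for Rpl15, 19.7% for Rpl10a and 0.0286% for Rpl39.

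Together the members took 1.96, 1.30, 1.56 and 1.06% of all reads in MD+CA libraries, 1.81, 1.46, 1.54 and 1.61% in MD libraries and 1.76, 1.52, 1.76 and 2.07% in CD libraries. Group means were 1.47 ± 0.385% for MD+CA, 1.60 ± 0.149% for MD and 1.78 ± 0.228% for CD (SD, n = 4 each). The groups overlapped: MD+CA held both the second highest share (replicate 1) and the 2 lowest (replicates 4 and 2), and its range spanned the whole MD group. The same members took 3.05 ± 0.764% of TPM in MD+CA libraries, 3.16 ± 0.327% in MD libraries and 3.76 ± 0.564% in CD libraries. The balance of the subunits was similar in the groups: the ratio of large to small subunit TPM averaged 1.96 ± 0.232 in MD+CA, 1.99 ± 0.169 in MD and 1.93 ± 0.161 in CD libraries. The 78 mitochondrial ribosomal protein genes, which build the separate ribosome of mitochondria, took 0.276 ± 0.0307% of reads in MD+CA, 0.273 ± 0.0315% in MD and 0.271 ± 0.0165% in CD libraries. In whole liver, less RNA per cell and fewer cells of a type cannot be told apart.

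**Figure D1:**
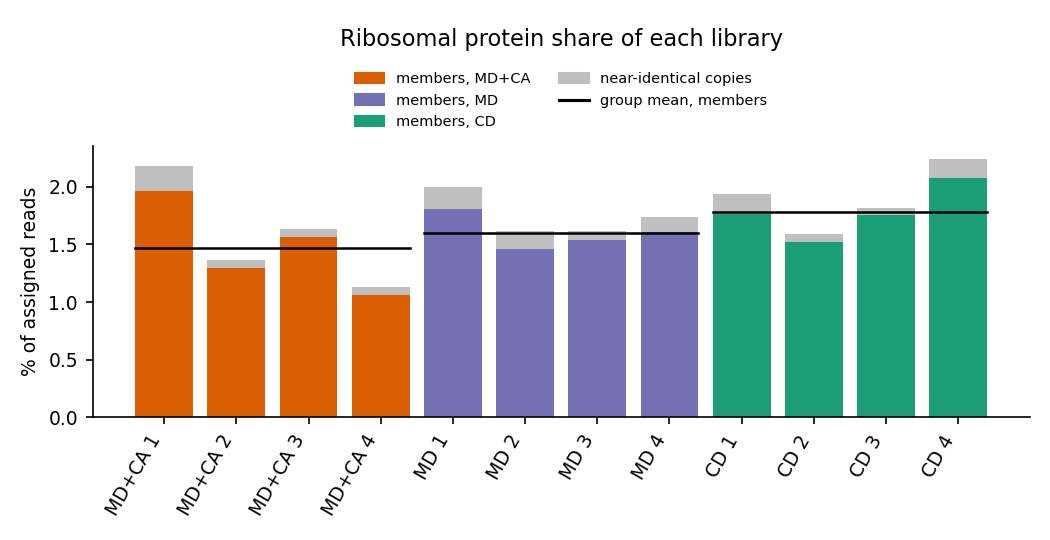
Bars show the percentage of assigned reads (vertical axis) in each of the 12 libraries (horizontal axis) that fell on the 83 members, coloured by group, with reads on their near-identical copies in grey and group means as lines. The means are 1.47% in MD+CA, 1.60% in MD and 1.78% in CD, and the 4 MD+CA libraries range over 1.06 to 1.96%.

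No member passed an adjusted p of 0.05 in any of the 3 comparisons with edgeR's quasi-likelihood test, Benjamini-Hochberg adjusted over all 13631 genes tested. For MD against CD the count was 0 of 82 beside 0.088% of all genes called (0.044% higher and 0.044% lower), for MD+CA against MD 0 beside 2.71% (1.06% higher and 1.64% lower), and for MD+CA against CD 0 beside 0.528% (0.22% higher and 0.308% lower). At an unadjusted p under 0.05, 3 members were higher and 4 lower in MD than CD livers, beside 10.5% and 9.39% of all genes. In MD+CA against MD livers 1 member was higher and 13 were lower, beside 11.6% of all genes in either direction, and in MD+CA against CD livers 0 were higher and 1 was lower, beside 6.16% and 4.37%. DESeq2 called Rpl28 lower in MD+CA than MD livers (log2 fold change -1.07, adjusted p = 0.0259), beside 612 of all 13631 genes lower. It called no other member in any comparison, and limma voom with sample weights called 0 in every comparison. The standard error of a canonical member had a median of 0.26 on the log2 scale in each comparison. Differences well above that size, such as that of Rps29 in MD+CA against MD livers (-0.76 ± 0.26), did not pass with 4 libraries a group.

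In MD against CD livers the median log2 fold change was -0.03 over the members, against 0.04 over all genes, and 47 of 82 were negative, beside 46.3% of all genes. The fold changes ran from -1.37 to 1.67. By subunit the median was -0.06 for 49 large subunit members and -0.01 for 33 small subunit members. Against MD livers, MD+CA livers had a median of -0.26, against 0.00 over all genes, with 63 of 82 negative beside 50.3% of all genes. Against CD livers, MD+CA livers had a median of -0.30, against 0.02 over all genes, with 80 of 82 negative beside 48% of all genes, and all 77 canonical members were among them, between -0.51 and -0.03. Both MD+CA comparisons use the same MD+CA libraries, so they are not independent of each other.

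**Figure D2:**
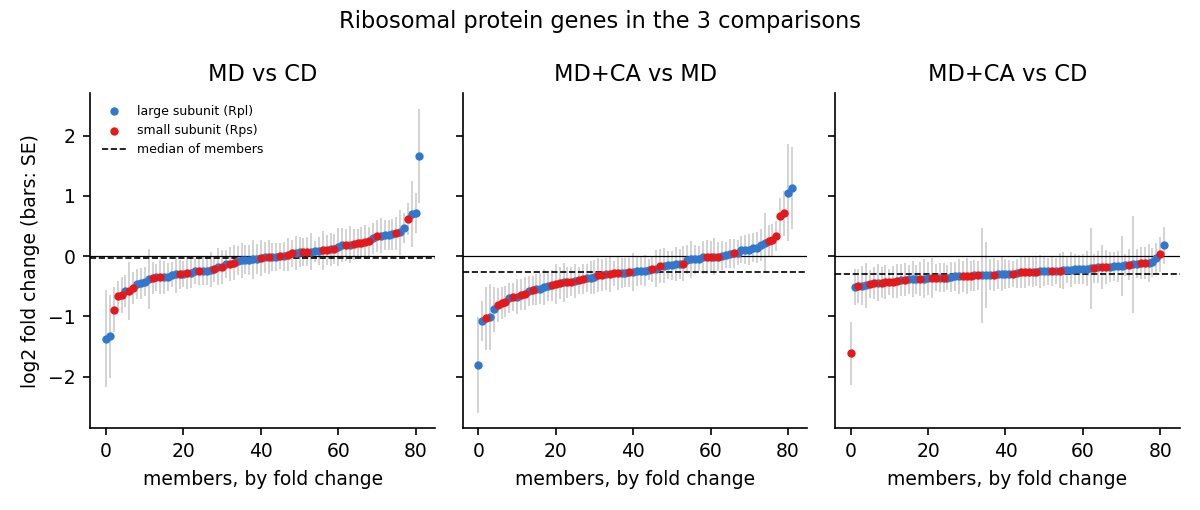
Each panel shows the log2 fold change (vertical axis, grey bars are the standard error) of the 82 members tested, ordered by fold change (horizontal axis), with large subunit genes in blue, small subunit genes in red and the median as a dashed line. The median is -0.03 in MD against CD, -0.26 in MD+CA against MD and -0.30 in MD+CA against CD, and the spread is smallest in MD+CA against CD.

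Low values lay mainly in 2 MD+CA libraries and 1 MD library. Replicate 4 of MD+CA was the lowest of all 12 libraries for 44 of the 82 members, replicate 2 of MD+CA for 17 and replicate 2 of MD for 20, whereas MD+CA replicate 1 was the lowest for 1 and replicate 3 for 0. The mean log2 CPM of the members was 7.08, 6.50, 7.08 and 6.32 in the MD+CA libraries, 7.22, 6.83, 6.93 and 7.03 in the MD libraries and 6.98, 6.94, 7.08 and 7.33 in the CD libraries. Thus MD+CA replicates 1 and 3 stood within the range of the other groups, and replicates 2 and 4 stood below all other libraries. Without replicates 2 and 4, which were picked on these same values, the median was 0.00 in MD+CA against CD livers with 41 of 82 negative, and 0.10 in MD+CA against MD livers with 33 of 82 negative. Without MD replicate 2 and MD+CA replicate 1, which were picked for their mitochondrial share and fragment length, the medians were -0.42 against CD and -0.44 against MD. Leaving out 1 library at a time moved the MD+CA against CD median between -0.42 and -0.15 and the MD+CA against MD median between -0.44 and -0.13. Replicates 2 and 4 of MD+CA had fragment allowances of 274 bases each, mitochondrial shares of 6.90 and 7.94% and Kupffer marker sums of 763 and 381.7 CPM, and the part of these measures in the low values was not tested.

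**Figure D3:**
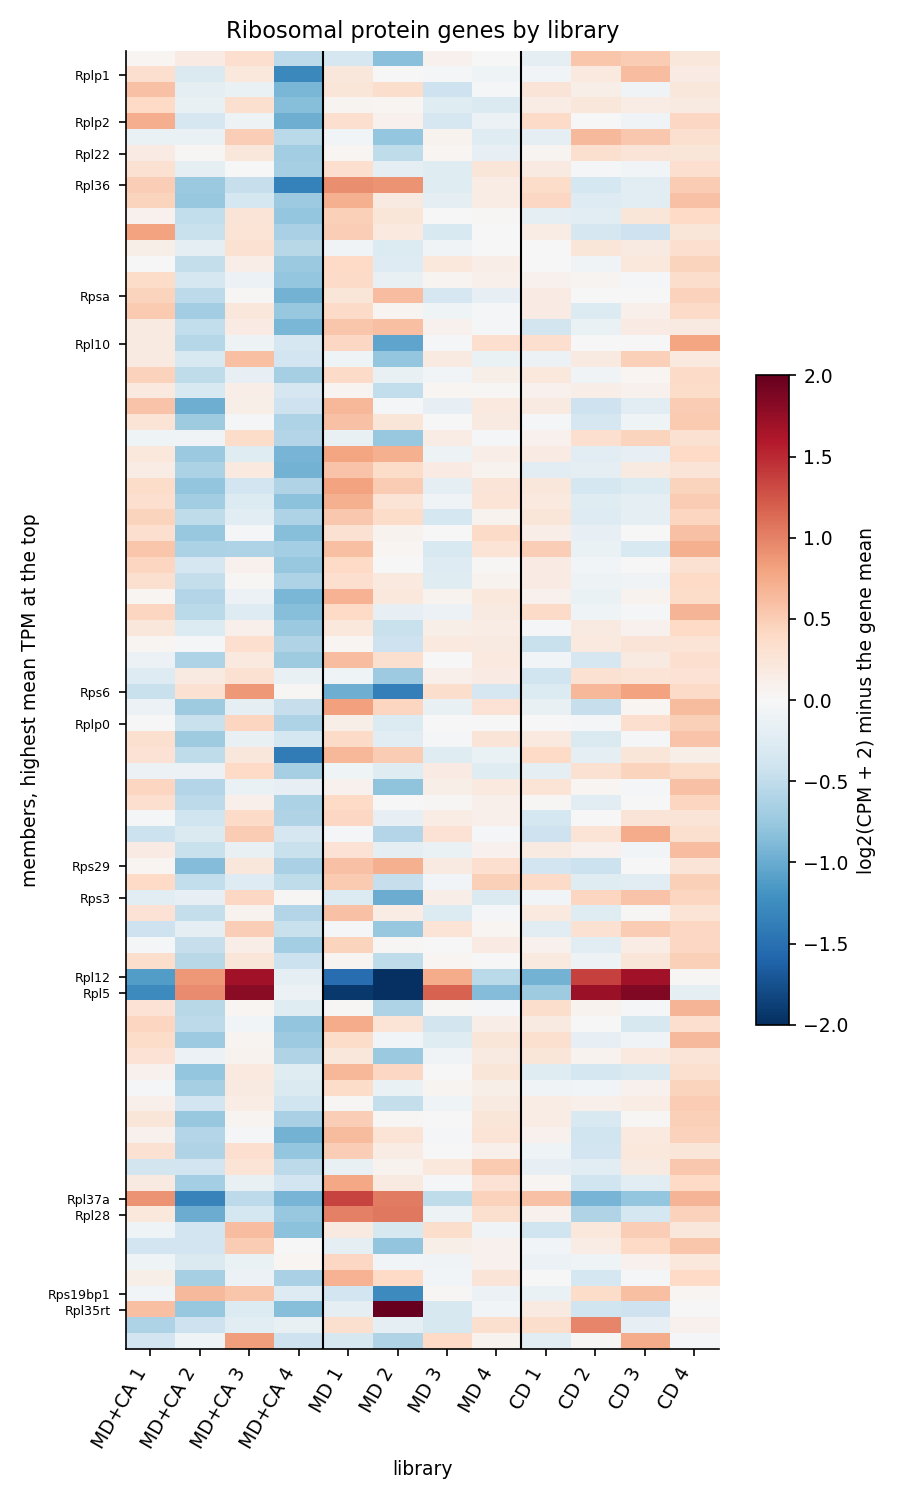
The heat map shows each of the 82 members tested (rows, highest mean TPM at the top) in each library (columns, some rows named), as log2(CPM + 2) minus the mean of that gene, with colours limited to -2 and 2. MD+CA replicates 2 and 4 are blue over most rows, and Rpl12 and Rpl5 follow another pattern that cuts across the 3 groups.

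Most members varied together from library to library. Across the 12 libraries the median Pearson correlation of a member with the mean of the other members was 0.73 (description over 12 libraries that share their depth and scaling), and 32 of 82 were above 0.8. Rpl32 (0.96) and Rps15a (0.94) were among those that followed the rest most closely, and Rps15a ranged only over 46.7 to 99.4 CPM. The 14 members below 0.5 included Rpl5 (-0.17), Rpl12 (-0.12), Rps6 (-0.03) and Rpl27 (0.21). The spread of a typical member across libraries, a median SD of 0.41 on the log2 scale, was like that of all genes tested, 0.43.

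The stalk proteins, which draw the elongation factors to the ribosome, gave low and imprecise differences. Rplp0, the base of the stalk, had 261, 190.3, 351 and 167 CPM in MD+CA livers, 279.5, 215, 259 and 259 CPM in MD livers and 257, 252, 328 and 359.8 CPM in CD livers. The 3 groups overlapped, and the log2 fold change was -0.24 ± 0.24 (SE) for MD against CD, -0.06 ± 0.24 for MD+CA against MD and -0.30 ± 0.24 for MD+CA against CD, with 95% intervals of -0.76 to 0.27, -0.58 to 0.45 and -0.82 to 0.21. Rplp1 averaged 408 ± 173 CPM in MD+CA, 455 ± 44.9 CPM in MD and 532 ± 109.8 CPM in CD livers (SD, n = 4 each). Rplp2 averaged 423 ± 215 CPM in MD+CA, 439.8 ± 87.1 CPM in MD and 499 ± 87.2 CPM in CD livers, and in MD+CA it ran from 219 CPM in replicate 4 to 724 CPM in replicate 1. The stalk genes thus varied most within the MD+CA group. Their edgeR adjusted p-values were 0.692 and 0.766 for Rplp1 and Rplp2 in MD against CD.

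The 5S particle proteins Rpl5 and Rpl11, which outside the ribosome bind Mdm2 and so stabilise p53, behaved differently from each other. Rpl5 had 74.0, 353, 641 and 169 CPM in MD+CA livers, 46.7, 32.4, 417 and 99.4 CPM in MD livers and 110.4, 608, 665 and 161 CPM in CD livers. In every group some libraries were high and others low, and the groups overlapped widely. Its log2 fold change was -1.37 ± 0.80 for MD against CD (edgeR adjusted p = 0.347), the lowest of all members, and 1.05 ± 0.80 for MD+CA against MD (edgeR adjusted p = 0.446). Rpl11 had 144, 76.8, 90.6 and 75.7 CPM in MD+CA livers, 157, 78.4, 105.05 and 152 CPM in MD livers and 142, 91.5, 92.4 and 152 CPM in CD livers. Its values varied far less than those of Rpl5, and the groups overlapped. The log2 fold change was 0.05 ± 0.28 for MD against CD, -0.35 ± 0.28 for MD+CA against MD and -0.30 ± 0.28 for MD+CA against CD.

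Rpl5 levels went with the length of the sequenced fragments and with the share given to its copy. The 6 libraries with an allowance of 261 bases or more had 169 to 665 CPM of Rpl5, and the 6 with 258 bases or less had 32.4 to 161 CPM. Of the reads on Rpl5 and its copies, 86.3, 43.9, 33.2 and 61.9% lay in the copies in MD+CA libraries, 86.9, 84.2, 35.6 and 76.9% in MD libraries and 80.5, 33.0, 25.5 and 75.6% in CD libraries. Libraries with an allowance of 258 bases or less gave 75.6 to 86.9% of these reads to the copies. The others gave 25.5 to 61.9%, and MD+CA replicate 4, with 274 bases, was the highest of them. With copies added, Rpl5 had 543, 629, 961 and 442 CPM in MD+CA livers, 357, 205, 648 and 431 CPM in MD livers and 566, 908, 892 and 661 CPM in CD livers. The range then narrowed, and the log2 fold change was -0.88 ± 0.33 for MD against CD (edgeR adjusted p = 0.17) and 0.65 ± 0.33 for MD+CA against MD (edgeR adjusted p = 0.248). In a model with fragment length as a covariate and no copies added, the Rpl5 values were -0.19 for MD against CD (edgeR adjusted p = 0.909) and 0.14 for MD+CA against MD (edgeR adjusted p = 0.923).

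**Figure D4:**
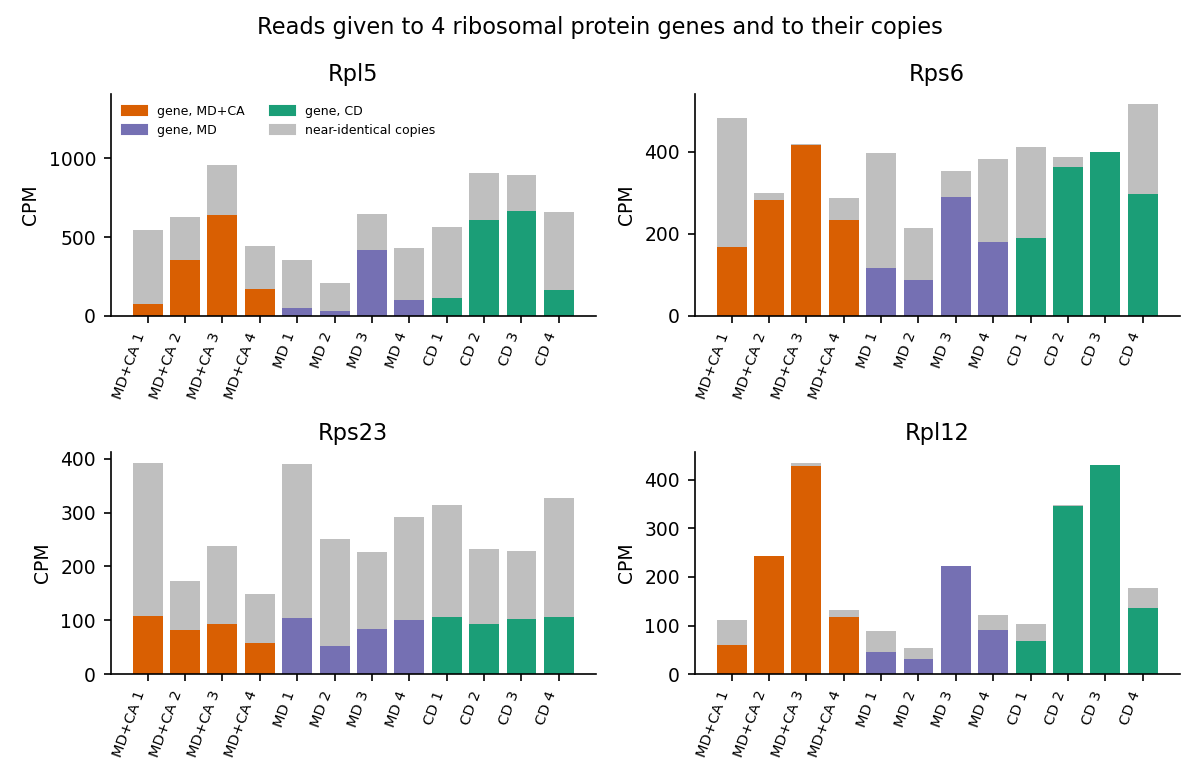
Stacked bars give CPM (vertical axes) in each library (horizontal axes) on Rpl5, Rps6, Rps23 and Rpl12, coloured by group, with the reads of their near-identical copies in grey. Copies hold 25.5 to 86.9% of Rpl5 reads and 0.248 to 70.8% of Rps6 reads by library, and few of the Rpl12 reads in libraries where Rpl12 is high.

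Rps6, the classic substrate of the S6 kinases downstream of mTORC1, had 168, 283, 418 and 232 CPM in MD+CA livers, 115, 87.7, 291 and 179.9 CPM in MD livers and 189, 364, 399 and 297 CPM in CD livers. It was lowest in MD replicates 2 and 1, and its MD and CD ranges overlapped. The log2 fold change was -0.89 ± 0.37 for MD against CD (unadjusted p = 0.0294, edgeR adjusted p = 0.207) and 0.71 ± 0.37 for MD+CA against MD (edgeR adjusted p = 0.264). Its copies, led by Rps6-ps4, took 65.1, 5.33, 0.248 and 19.1% of the joint reads in MD+CA libraries, 70.8, 58.8, 17.4 and 53.0% in MD libraries and 53.9, 6.34, 0.415 and 42.4% in CD libraries. With copies added the values became 482, 298, 419 and 287 CPM in MD+CA livers, 397, 213, 352 and 383 CPM in MD livers and 411, 388, 401 and 517 CPM in CD livers. The MD against CD log2 fold change then was -0.35 ± 0.25 (edgeR adjusted p = 0.426) and the MD+CA against MD one 0.14 ± 0.25 (edgeR adjusted p = 0.757), and the correlation of Rps6 with the other members was 0.63 in place of -0.03.

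Rpl12, which binds rRNA at the foot of the stalk, ranged as widely as Rpl5, with 60.1, 244, 428 and 118 CPM in MD+CA livers, 44.8, 30.7, 223 and 90.3 CPM in MD livers and 67.6, 346, 429 and 135 CPM in CD livers. The high libraries were the same as for Rpl5, with MD+CA replicate 3 and CD replicates 3 and 2 at the top. Its log2 fold change was -1.33 ± 0.69 for MD against CD (edgeR adjusted p = 0.29) and 1.13 ± 0.68 for MD+CA against MD (edgeR adjusted p = 0.336). Copies held 45.8, 0.168, 1.57 and 10.3% of the joint Rpl12 reads in MD+CA libraries, 49.2, 43.8, 0.102 and 26.1% in MD libraries and 34.3, 0.850, 0.122 and 23.2% in CD libraries, with high shares where Rpl12 was low. With copies added, its SD across libraries was 0.95 on the log2 scale, against 1.29 without them, and the MD against CD value was -1.11 ± 0.51. In the model with fragment length and no copies added, that value was -0.16 (edgeR adjusted p = 0.912). Rps23, a protein of the decoding centre that bears on the accuracy of translation, had 66.3% of its joint reads in copies and was steadier, with 108.1, 81.3, 92.9 and 57.6 CPM in MD+CA livers, 104.4, 52.2, 84.7 and 100.5 CPM in MD livers and 105.7, 92.9, 102.1 and 105.8 CPM in CD livers. The SD of Rps23 across libraries was 0.35 on the log2 scale without copies and 0.43 with them. Its joint values were 393, 173, 238 and 148 CPM in MD+CA livers. They were 389, 250, 226 and 291 CPM in MD livers and 313, 233, 228 and 327 CPM in CD livers. With copies added, the median correlation of a member with the rest was 0.83 in place of 0.73, and again 0 members were called in any comparison.

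Long and short members had fold changes of opposite sign on the whole between the diets. Among 41 members with a mean transcript length of 732 bases or less, the median log2 fold change in MD against CD livers was 0.11 and 14 were negative. Among the 41 longer ones it was -0.25 and 33 were negative. In MD+CA against MD livers the medians were -0.40 for shorter and -0.13 for longer members, and in MD+CA against CD livers -0.26 and -0.31. The Spearman correlation of fold change with length across the 82 members was -0.57, 0.48 and 0.00 in the 3 comparisons, against -0.13, 0.09 and -0.03 over all genes (a description across genes, which share libraries). With fragment length as a covariate the correlations were -0.23, 0.34 and 0.20, and the SD of the fold changes over members in MD against CD fell to 0.20, against 0.42 without it. Their lowest and highest values in MD against CD were then -0.62 and 0.39, against -1.37 and 1.67 without it. In that model the medians were -0.23 for MD against CD, -0.11 for MD+CA against MD and -0.32 for MD+CA against CD, with 0 members called. MD libraries had the shortest fragments on average, an allowance of 241 ± 18.8 bases, against 263 ± 14.1 bases in CD libraries (SD, n = 4 each).

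**Figure D5:**
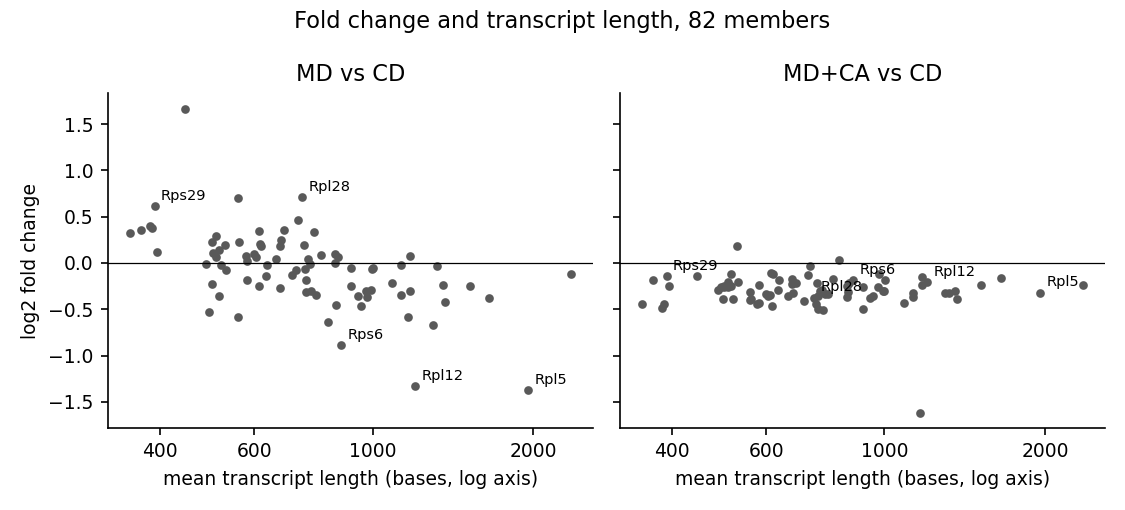
Points are the 82 members, with mean transcript length on a log axis (horizontal, bases) and log2 fold change (vertical) for MD against CD on the left and MD+CA against CD on the right. On the left, short members such as Rps29 lie above 0 and long ones such as Rpl5 and Rpl12 below, while on the right nearly all lie below 0 at every length.

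The members higher in MD than CD livers by fold change were mostly short, though Rpl28, with a mean length of 737 bases, was among the longer ones. Rpl28, a large subunit protein, had 56.9, 23.6, 37.8 and 28.0 CPM in MD+CA livers, 100.1, 103.7, 45.4 and 61.2 CPM in MD livers and 51.8, 31.4, 37.8 and 68.2 CPM in CD livers. MD replicates 1 and 2 were the highest of all libraries, the MD group overlapped CD in replicates 3 and 4, and MD+CA replicates 2 and 4 were lowest. Its log2 fold change was 0.71 ± 0.33 for MD against CD (edgeR adjusted p = 0.246) and -1.09 ± 0.33 for MD+CA against MD (edgeR adjusted p = 0.0796), the smallest adjusted p of any member. DESeq2, no filter on low counts, and leaving out MD replicate 3 or MD+CA replicate 1 brought that second value under 0.05, with adjusted p of 0.0259, 0.0146, 0.0379 and 0.0371. Of all genes in that comparison, DESeq2 called 591 higher and 612 lower. Leaving out 1 library gave 109 to 963 calls, against 369 in the main model. In the model with fragment length the Rpl28 value for MD+CA against MD was -0.59 (edgeR adjusted p = 0.257), and over all alternatives it ran from -1.41 to -0.49, with adjusted p of 0.0146 to 0.434. Copies, led by Rpl28-ps1 with 0 differences over 411 coding bases, held 43.6% of the joint reads, and with them added the MD+CA against MD value was -1.01 ± 0.35 (edgeR adjusted p = 0.112).

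Rps29, a small zinc-binding protein of the small subunit, had 34.3, 17.5, 39.5 and 20.5 CPM in MD+CA livers, 51.5, 56.0, 38.2 and 42.8 CPM in MD livers and 25.3, 24.3, 33.1 and 40.4 CPM in CD livers. CD replicate 4 exceeded MD replicate 3, and the other MD values lay above all CD values. The log2 fold change was 0.61 ± 0.26 for MD against CD (edgeR adjusted p = 0.214) and -0.76 ± 0.26 for MD+CA against MD (edgeR adjusted p = 0.112). Rps27, which also binds zinc, averaged 31.9 ± 6.31 CPM in MD+CA, 54.6 ± 15.3 CPM in MD and 43.5 ± 15.3 CPM in CD livers, with -0.78 ± 0.26 for MD+CA against MD (edgeR adjusted p = 0.105). Rpl37a varied widely within each group, with 44.7, 7.93, 15.4 and 11.2 CPM in MD+CA livers, 62.0, 49.6, 15.7 and 32.5 CPM in MD livers and 35.8, 11.1, 12.7 and 38.4 CPM in CD livers. Its high libraries, MD replicates 1, 2 and 4, MD+CA replicate 1 and CD replicates 1 and 4, cut across the groups. They were the libraries with a fragment allowance of 258 bases or less. The log2 fold change of Rpl37a was 0.70 ± 0.54 for MD against CD and -1.01 ± 0.55 for MD+CA against MD. Rpl36 averaged 109 ± 62.6 CPM in MD+CA, 201 ± 75.9 CPM in MD and 153 ± 45.2 CPM in CD livers. Without MD+CA replicate 1, edgeR called Rpl36 and Rps28 lower in MD+CA than MD livers besides Rpl28, with an adjusted p of 0.0412 each. Leaving out 1 library at a time gave 109 to 963 of all genes called in that comparison, against 369 with all 12 libraries. Rpl29, a heparin-binding large subunit protein, averaged 84.5 ± 23.7 CPM in MD+CA, 119 ± 23.2 CPM in MD and 86.2 ± 20.9 CPM in CD livers, with 0.47 ± 0.24 for MD against CD.

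Members whose libraries did not overlap between groups were few. In MD against CD livers 4 members, Rpl22, Rpl6, Rpl4 and Rpl13a, were lower in every MD library than in every CD library, beside 7.12% of all genes, and 0 were higher in every one, beside 5.99%. Rpl22, which has the paralog Rpl22l1, had 289, 197, 287 and 249.99 CPM in MD livers, against 291, 350.1, 336 and 331 CPM in CD livers. The highest MD value stood just under the lowest CD value, and the log2 fold change was -0.35 ± 0.23 (edgeR adjusted p = 0.382). Rpl13a, which in human cells also represses translation of inflammatory mRNAs when released from the ribosome, had 915, 905, 738 and 721 CPM in MD livers, against 973, 1028, 976 and 990.2 CPM in CD livers. Rpl6 and Rpl4, which lines the exit tunnel, had log2 fold changes of -0.30 ± 0.21 and -0.25 ± 0.21. Rps25, needed for initiation at several viral internal ribosome entry sites, was the 1 member lower in every MD+CA than every MD library, beside 5.24% of all genes lower and 4.99% higher, with 119.8, 77.0, 107.7 and 60.8 CPM in MD+CA livers, against 189, 136, 123 and 135 CPM in MD livers. Its log2 fold change was -0.68 ± 0.24 (edgeR adjusted p = 0.112). In MD+CA against CD livers 0 members were free of overlap, beside 3.48% of all genes higher and 2.92% lower. These counts were at or below the share over all genes.

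Among proteins at the active sites, Rpl3, which reaches the peptidyl transferase centre, had 277, 154, 233 and 192 CPM in MD+CA livers, 232, 148, 231 and 222 CPM in MD livers and 292, 239, 222 and 366 CPM in CD livers. MD replicate 2 and MD+CA replicate 2 were the lowest, and the log2 fold change was -0.43 ± 0.24 for MD against CD (edgeR adjusted p = 0.333) and -0.38 ± 0.24 for MD+CA against CD (edgeR adjusted p = 0.683). Rpl10, which joins the large subunit late in its assembly, averaged 183 ± 41.0 CPM in MD+CA, 212 ± 81.5 CPM in MD and 261 ± 71.8 CPM in CD livers. Its log2 fold change for MD+CA against CD, -0.51 ± 0.30 with a 95% interval of -1.16 to 0.13, was the lowest of the canonical members in that comparison. Rps9 and Rpl7a followed with -0.50 ± 0.28 and -0.49 ± 0.32, and Rps9 is a small subunit protein that bears on decoding accuracy. Rps3, which lines the mRNA entry channel, had 142, 148, 222 and 167 CPM in MD+CA livers, 137, 82.3, 181 and 136 CPM in MD livers and 159, 223, 246 and 224 CPM in CD livers. MD replicate 3 lay within the CD range and the other MD libraries below it, and the log2 fold change of -0.67 ± 0.25 for MD against CD had the smallest adjusted p among the canonical members in that comparison (0.174, edgeR).

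Rpsa, which sits at the mRNA exit and was also named the laminin receptor, had 681, 348, 511 and 260.0 CPM in MD+CA livers, 592, 767, 396 and 448 CPM in MD livers and 563, 499, 505 and 693 CPM in CD livers. The highest library was MD replicate 2 and the lowest MD+CA replicate 4, and its log2 fold change was -0.04 ± 0.30 for MD against CD and -0.33 ± 0.30 for MD+CA against CD. Rpl38, which in mouse mutants is needed for normal patterning of the axial skeleton, averaged 72.3 ± 25.5 CPM in MD+CA, 105.2 ± 24.1 CPM in MD and 82.1 ± 14.8 CPM in CD livers, with -0.54 ± 0.26 for MD+CA against MD (edgeR adjusted p = 0.232). Rpl39, a short protein of the tunnel exit, averaged 18.5 ± 5.52 CPM in MD+CA, 30.02 ± 6.80 CPM in MD and 23.6 ± 5.52 CPM in CD livers, with -0.70 ± 0.25 for MD+CA against MD (edgeR adjusted p = 0.115). Rpl41, the smallest ribosomal protein, had log2 fold changes of 0.15 ± 0.32, -0.26 ± 0.32 and -0.12 ± 0.32 in MD against CD, MD+CA against MD and MD+CA against CD. For Rpl38 and Rpl39 the MD group was the highest on average, and both groups set against it overlapped it.

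Rps27a encodes ubiquitin fused to a ribosomal protein, and Fau a ubiquitin-like protein fused to the small subunit protein eS30. Rps27a averaged 74.8 ± 29.4 CPM in MD+CA, 91.1 ± 17.4 CPM in MD and 99.6 ± 27.1 CPM in CD livers. Fau averaged 206 ± 127 CPM in MD+CA, 245 ± 28.8 CPM in MD and 254 ± 61.1 CPM in CD livers. Rack1, a signalling scaffold on the small subunit, had log2 fold changes of -0.06 ± 0.22 for MD against CD, -0.30 ± 0.22 for MD+CA against MD and -0.36 ± 0.22 for MD+CA against CD. With edgeR, Rps27a, Fau and Rack1 were not called in any comparison.

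The paralog Rps27l is a p53 target that can replace Rps27 in the ribosome. It had 37.4, 31.9, 38.8 and 32.2 CPM in MD+CA livers, 56.0, 47.8, 48.4 and 54.0 CPM in MD livers and 32.5, 34.0, 34.6 and 42.1 CPM in CD livers. Every MD library was above every CD library, beside 5.99% of all genes. Every MD library of Rps27l was also above every MD+CA library, beside 5.24% of all genes. The log2 fold change was 0.53 ± 0.16 for MD against CD (edgeR adjusted p = 0.128) and -0.56 ± 0.16 for MD+CA against MD (edgeR adjusted p = 0.0707). Both lay within the range of the canonical members, -1.37 to 0.71 and -1.085 to 1.126. DESeq2 called both differences, with adjusted p of 0.0364 and 0.0153, and limma voom called the MD against CD one (0.0454). Of all 13631 genes, DESeq2 called 305 higher in MD against CD and 612 lower in MD+CA against MD. In MD against CD, limma voom also called more of all genes than edgeR. Rpl22l1, the paralog of Rpl22, averaged 7.39 ± 2.28 CPM in MD+CA, 9.66 ± 2.39 CPM in MD and 10.7 ± 2.00 CPM in CD livers, with -0.54 ± 0.26 for MD+CA against CD (edgeR adjusted p = 0.499). Of the 4 paralogs tested in this left-out group, 0 were called by edgeR in any comparison.

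Among the retrocopies, Rpl35rt had the highest member fold change in MD against CD (1.67) and the lowest in MD+CA against MD (-1.80). Rpl35rt had 5.59, 0.980, 2.15 and 0.777 CPM in MD+CA livers, 2.38, 26.3, 2.02 and 2.86 CPM in MD livers and 3.71, 1.82, 1.79 and 2.98 CPM in CD livers. MD replicate 2 alone was high, and without it and MD+CA replicate 1 the highest member fold change in MD against CD was 0.58. Rps23rg1, a mouse gene that arose by retroposition of Rps23, had 0.367, 0.735, 1.14 and 1.29 CPM in MD+CA livers, 2.52, 1.22, 0.900 and 2.54 CPM in MD livers and 2.63, 5.16, 1.25 and 1.87 CPM in CD livers. At these levels of a few CPM its log2 fold change for MD+CA against CD, -1.62 ± 0.52 (unadjusted p = 0.00744, edgeR adjusted p = 0.205), was the lowest of all members. Rps19bp1, which binds Rps19, averaged 40.1 ± 12.6 CPM in MD+CA, 25.2 ± 9.18 CPM in MD and 39.4 ± 9.36 CPM in CD livers, with -0.64 ± 0.30 for MD against CD and 0.67 ± 0.30 for MD+CA against MD. Rpl36al, a paralog of Rpl36a, was the 1 member besides Rps19bp1 with a positive value in MD+CA against CD (0.18 ± 0.31).

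Most member RNA was of the protein-coding transcript class, 93.7 ± 1.55% of member TPM in MD+CA, 92.7 ± 2.45% in MD and 94.0 ± 0.727% in CD libraries (SD, n = 4 each). Retained-intron transcripts held 1.34 ± 0.255% in MD+CA, 2.06 ± 1.19% in MD and 1.19 ± 0.148% in CD libraries, and MD replicate 2 was the highest with 3.72%. The other protein-coding genes had more, 4.87 ± 0.807% in MD+CA, 6.21 ± 2.12% in MD and 4.79 ± 0.443% in CD libraries, again with MD replicate 2 highest at 9.23%. For Rpl5 the retained-intron share was 23.2, 5.11, 1.83 and 8.06% in MD+CA, 45.2, 65.4, 3.57 and 21.3% in MD and 15.2, 3.10, 2.64 and 10.4% in CD libraries, highest where its own reads were lowest. Rps26 had 11.5, 1.22, 0.892 and 1.31% in MD+CA, 39.1, 43.5, 0.918 and 4.39% in MD and 1.39, 2.30, 0.673 and 0.323% in CD libraries. Its highest shares were in MD replicates 2 and 1 and MD+CA replicate 1. These libraries had the smallest fragment allowances of the 12, with 221, 230 and 227 bases. Transcripts annotated to nonsense-mediated decay held 27.0, 3.90, 3.36 and 10.8% of Rpl12 TPM in MD+CA, 33.0, 32.7, 3.31 and 18.8% in MD and 30.1, 6.22, 2.33 and 16.9% in CD libraries. The Rpl5 and Rpl12 shares were high in the libraries with short fragments. For these genes and Rps26 the part of fragment length was not tested.

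Genes that share the TOP tract or serve ribosome production were examined beside the members. Of 21 translation factors and other TOP mRNAs, 0 were called in any comparison. Their median log2 fold change was -0.49 in MD against CD, with 18 negative, beside 46.3% of all genes, and 7 lower in every MD library, beside 7.12% of all genes. It was 0.18 in MD+CA against MD and -0.23 in MD+CA against CD. In MD against CD livers the median of this list lay below that of the ribosomal protein genes (-0.03). The longer ribosomal protein genes had -0.25 there, and the part of transcript length in the difference between the lists was not tested. Their summed level was 6415, 6703, 7884 and 6854 CPM in MD+CA, 5945, 3814, 7829 and 6775 CPM in MD and 7729, 9090.0, 9570.5 and 9119 CPM in CD livers. The smallest p-values in MD against CD were those of Npm1, a nucleolar chaperone (-0.89 ± 0.23, edgeR adjusted p = 0.113), and Pabpc1, the poly(A)-binding protein (-0.69 ± 0.19, edgeR adjusted p = 0.117). In MD+CA against CD they were those of Eif4b (-0.61 ± 0.23) and Npm1 (-0.52 ± 0.23), and in MD+CA against MD those of Eef1g (0.56 ± 0.21) and Eif3e (-0.39 ± 0.17), all with an adjusted p over 0.05. Of 7 host genes of small nucleolar RNAs with TOP tracts, 0 were called, with medians of 0.03 in MD against CD, -0.35 in MD+CA against MD and -0.35 in MD+CA against CD, and Zfas1 had the smallest p in both MD+CA comparisons (-0.75 ± 0.25 against MD and -0.65 ± 0.25 against CD).

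Of 41 ribosome assembly factors, edgeR called Ltv1, which helps export and mature the small subunit, higher in MD+CA than MD livers (0.94 ± 0.20, adjusted p = 0.029), beside 1.06% of all genes, and called 0 in the other 2 comparisons. The list's medians were -0.28 in MD against CD, 0.35 in MD+CA against MD and 0.16 in MD+CA against CD. Bop1, a large subunit assembly factor, had 0.79 ± 0.23 in MD+CA against MD (edgeR adjusted p = 0.0696), and nucleolin (Ncl) -0.78 ± 0.25 in MD against CD (edgeR adjusted p = 0.131). In MD+CA against MD 10 of the 41 assembly factors were negative, beside 50.3% of all genes and 63 of 82 ribosomal protein genes. Of 17 genes of RNA polymerase I, which makes rRNA, and its factors, edgeR called Polr1b, the second largest subunit, lower in MD+CA than MD livers (-1.01 ± 0.23, adjusted p = 0.0338), beside 1.64% of all genes, with a list median of -0.07. Of 20 genes of the mTORC1 pathway and TOP control, 0 were called. Ddit4, an inhibitor of mTORC1, had 0.89 ± 0.28 in MD against CD (edgeR adjusted p = 0.131) and 1.04 ± 0.28 in MD+CA against CD (edgeR adjusted p = 0.109). Every library of both diet groups was above every CD library for Ddit4, beside 5.99% of all genes for MD and 3.48% for MD+CA. Pdcd4, a translation inhibitor degraded after S6 kinase phosphorylation, had -1.06 ± 0.28 in MD against CD (edgeR adjusted p = 0.113) and 0.93 ± 0.28 in MD+CA against MD (edgeR adjusted p = 0.0753).

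The 78 mitochondrial ribosomal protein genes, tested alongside, gave medians of 0.05 in MD against CD, 0.00 in MD+CA against MD and 0.03 in MD+CA against CD, with 0 called in any comparison. In MD+CA against CD 37 of 78 were negative, while 80 of 82 cytosolic members were. At an unadjusted p under 0.05, 7 were higher and 2 lower in MD than CD livers, beside 10.5% and 9.39% of all genes, and 2 were higher and 6 lower in MD+CA than MD livers, beside 11.6% in either direction. These counts were below the share over all genes. Mrps36 had the smallest p in MD+CA against MD (-0.95 ± 0.25, edgeR adjusted p = 0.0519). Of 70 nuclear genes of the respiratory chain tested, 1 was called, Ndufb1 of complex I, lower in MD+CA than MD livers (-0.79 ± 0.18, edgeR adjusted p = 0.0347), beside 1.64% of all genes. Of 10 Kupffer cell markers, edgeR called 5 higher in MD+CA than MD livers, beside 1.06% of all genes, and 4 higher in MD+CA than CD livers, beside 0.22%, and their part in the member values was not tested.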

How the data were processed

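Poly(A)-selected liver RNA was sequenced from 12 libraries in 3 groups of 4. Build GRCm39 and the tools Salmon 1.10.3, fastp and DESeq2 are listed in the submitters' processing notes. Annotation release and strandedness were not given in the sources used here. The deposited tables give expected counts per transcript, not normalized, and TPM, which the authors' software scaled to transcript length and library size, per the file headers. Effective transcript length in bases is deposited beside both.

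The deposited expected counts were added up over the transcripts of a gene and rounded. Genes were filtered with filterByExpr of edgeR 4.0.16 (minimum count 10), which left 13631, and TMM-scaled CPM are given. Each comparison was a contrast in 1 quasi-likelihood model of all 12 libraries with a mean per group, Benjamini-Hochberg adjusted over the 13631 genes, and called under 0.05. Standard errors were taken as log2 fold change over root F, and intervals cover 95%. Values printed with ± beside a mean are SD over 4 libraries, and those beside a log2 fold change are SE. CPM were not corrected for length, so levels are compared between genes only in TPM. The steps were tested on simulated data. Copies were found by aligning member transcripts to the GENCODE M21 reference with BLAST 2.17.0 (90% identity over 80% of the copy, 81 members present there). R 4.3.3, limma 3.58.1, DESeq2 1.42.0, Python 3.11.15, pandas 2.3.3, numpy 2.4.6 and matplotlib 3.10.9 were used.

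The members and gene lists were chosen with earlier results of these data known. Named are, in each comparison, the 5 highest and 5 lowest members by fold change, fixed members of known role, and of other lists up to the 2 with the smallest p. The members free of overlap, those with many copies or mixed transcript classes and those that followed the rest most closely were named after their values were seen. Some genes that these rules name are not reported here. No pair of libraries of a group agreed within sampling noise, so all 12 were kept as separate.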

Additional observations from a re-analysis of the deposited data

Results flagged for a closer look

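The share of reads and each named member were examined in each group of 4 libraries. In 5 of these 90 sets, 5.56% of them, 1 library lay far from the other 3 by Dixon's test, and chance gives about 1 in 20. In MD+CA, replicate 1 had 359 CPM of Rpl7a, against 152 to 158 CPM in the others. MD replicate 2 had 26.3 CPM of Rpl35rt, against 2.02 to 2.86 CPM, and 148 CPM of Rpl3, against 222 to 232 CPM. In CD, replicate 4 had 117 CPM of Rpl29, against 72.8 to 78.8 CPM in the others. CD replicate 1 had 95.6 CPM of Rpl27, against 154 to 157 CPM. Rpl27 has the copy Gm11518, identical over 408 coding bases, and copies held 34.5% of the joint Rpl27 reads in CD replicate 1, against 0.324, 0.29 and 22.8% in CD replicates 2, 3 and 4.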

How the results depend on the processing

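No member was called higher under any setting, and lower calls arose only in MD+CA against MD, where there were 1 with DESeq2 (Rpl28), 2 without a filter on low counts (Rpl28 and Rpl35rt) and 0 to 3 when 1 library was left out. In the other comparisons the count stayed at 0 under every setting. The median fold change of the members kept its sign in both MD+CA comparisons, except without MD+CA replicates 2 and 4 (chosen after the data were seen), when it was 0.10 against MD and 0.00042 against CD. Without MD replicate 2 and MD+CA replicate 1 (also chosen after the data were seen) the median was -0.44 against MD and -0.42 against CD. Leaving out 1 library gave medians of -0.44 to -0.13 against MD, -0.42 to -0.15 against CD, and -0.13 to 0.07 for MD against CD, where upper-quartile scaling also turned the sign (0.03). With copies added and fragment length as a covariate (chosen after the data were seen) the medians were -0.26, -0.10 and -0.32. Leaving out 1 library moved the mean share of reads between 1.31 and 1.61% in MD+CA, 1.54 and 1.65% in MD, and 1.68 and 1.86% in CD. Counted over reads outside mitochondrially encoded genes, the share was 1.57% in MD+CA, 1.80% in MD and 1.90% in CD. Of 2378 values of named genes under the alternatives, 9 gained a call, those of Rps27l, Rpl28, Rpl35rt and Rpl36, and Rps28, which was named after its values were seen, gained one besides.

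The count of all genes called moved far more. For MD against CD (12) it was 638 with DESeq2, 374 with limma voom, 481 without a filter, 2 with a transcript length offset, 35 with only both compared groups, 6 with a fragment length covariate with or without copies, 1 without MD+CA 2 and 4, and 0 to 26 without 1 library. For MD+CA against MD (369) it was 1203 with DESeq2, 1017 without a filter, 197 with the length offset, 99 with only both compared groups and 664 with the replicate block. In the same comparison it was 165 with fragment length, 170 with copies and fragment length, 222 without MD 2 and MD+CA 1, 66 without MD+CA 2 and 4, and 109 to 963 without 1 library. For MD+CA against CD (72) it was 334 with DESeq2, 191 with voom, 390 without a filter, 34 with the length offset, 121 over protein-coding genes, 46 with both compared groups, 154 with the replicate block, 165 with fragment length, 168 with copies besides, and 17 to 168 without 1 library. The cause was not tested. Replicate numbers in the labels do not say that they pair mice, and same-numbered libraries correlated at -0.08 to 0.35, so they were not taken as pairs. With the replicate block the medians were -0.04, -0.29 and -0.33 and again 0 members were called.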
